A study of Mus musculus with 6 samples.

Results

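Osteopontin (Spp1) and periostin (Postn) are secreted proteins of the extracellular matrix, and their cellular source and the cells that carry their receptors were followed here in CD45+ cells from the brains of mice with human glioma. The 8 genes, chosen by symbol out of the 31053 genes counted, were the ligands Spp1 and Postn, the secretory kinase Fam20c, the transmembrane glycoprotein Gpnmb, the hyaluronan and osteopontin receptor Cd44, and the integrin subunits Itgav, Itgb5 and Itgb1. All 8 symbols were found. The mice were SCID animals, which lack T and B lymphocytes, and received U87 cells, an established human glioma line, by intracranial injection at 8 weeks of age (6 to 8 weeks by the sample labels). In 3 mice the graft expressed IL-33 and tissue was taken after 3 weeks, and in the other 3 mice, taken after 6 weeks, the graft carried the empty pcDNA 3.1 vector, so that IL-33 and time after implantation cannot be told apart. Cells of the right hemisphere, which held the tumor, were enriched on a Percoll gradient and sorted on CD45, and reads were aligned to the mouse genome alone, so that osteopontin or periostin RNA of the human graft was not measured.

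Osteopontin binds integrins through an arginine-glycine-aspartate motif and binds CD44, is phosphorylated in the Golgi apparatus by FAM20C, and is made by macrophages and microglia in injured, demyelinated or tumor-bearing brain. Periostin binds integrins that contain the αv subunit, encoded by Itgav, which pairs with β5 (Itgb5), β1 (Itgb1) and other β subunits, and is known as a product of fibroblasts, mural cells and glioma cells. GPNMB, which also binds integrins, accumulates in phagocytes with a heavy lysosomal load.

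The deposited matrix held 40411 barcodes with suffixes 1 to 6, of which 38751 passed the filters of the study. No label ties a suffix to a mouse, so the cells were treated as 1 pooled sample, the graft groups were not compared and no p-values were computed. Levels are CPM, the summed unique molecular identifiers (UMIs) of a gene in a group of cells scaled to a fixed total (counts per 10 to the power of 6 UMIs), with exact Poisson 95% intervals that cover counting error only and, as a measure of spread, the range over suffixes with at least 20 cells of the group. Suffixes held 2879 to 10217 barcodes and 9745192 to 24393841 UMIs, with a median of 1536 to 3503 UMIs per barcode. The study lists the cell number of each control and IL-33 library. The barcode counts of the suffixes equal these numbers in the order listed, control libraries first. Suffixes were still not assigned to libraries by such counts. Of 29579 barcode sequences, 3890 (13.2%) occurred in 2 or more suffixes. Each of these stands for several barcodes, so the share of the 40411 barcodes with a shared sequence is above 13.2%. Whether barcodes that share a sequence are separate cells was not tested, so suffixes are not read as independent replicates. Cells were grouped by marker genes that include none of the 8 genes. Of the passing cells, 36940 (95.3%) were microglia-gated, with P2ry12 at 3717 CPM and Tmem119 at 2456 CPM, and 174 were classical monocytes, 142 NK cells, 72 granulocytes, 39 dendritic cells, 13 border-associated macrophages and 192 choroid plexus epithelial cells. No cell passed the list for fibroblasts and mural cells or that for endothelium, 250 cells passed several lists or carried too much microglial RNA for their gate, and 929 passed none. Microglia-gated cells were divided by Apoe, the lipid carrier that rises in microglia around tumors and plaques, into 10049 Apoe-low cells (under 0.2% of a cell's UMIs), 10975 Apoe-middle cells and 15916 Apoe-high cells (at least 1%). Apoe-high cells were shallower, with a median of 1273 UMIs against 2746 in Apoe-low cells.

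In the mouse genome (GRCm38, GENCODE annotation) all 8 are protein-coding genes. Spp1 lies on chromosome 5 (104435118 to 104441050, plus strand), Postn on chromosome 3 (54361109 to 54391037, plus), Fam20c on chromosome 5 (138754514 to 138810077, plus) and Gpnmb on chromosome 6 (49036546 to 49070929, plus). Cd44 lies on chromosome 2 (102811141 to 102901665, minus strand), Itgav also on chromosome 2 (83724397 to 83806916, plus), Itgb5 on chromosome 16 (33829665 to 33949338, plus) and Itgb1 on chromosome 8 (128685654 to 128733200, plus). None of them overlaps another gene that was counted in the matrix. Spp1 overlaps Gm42793, which lies on the same strand and was not counted. Whether reads of Gm42793 were counted as Spp1 was not tested. The other overlapping genes, at Cd44 and Itgav, lie on the opposite strand and were not counted. The libraries read the 3′ end of transcripts, and no isoform of Cd44 or of the other genes was resolved.

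The 250 bases upstream of a RefSeq start (GRCm38.p6) are shown for Spp1, Postn and Gpnmb, which were all higher in Apoe-high cells, in the direction of transcription, with matches to the motifs searched in capitals. Another start of Spp1 and another of Postn, whose windows held no match, are not shown. The windows are chr5:104434861-104435110, chr3:54360857-54361106 and chr6:49036268-49036517, all on the plus strand.
Spp1: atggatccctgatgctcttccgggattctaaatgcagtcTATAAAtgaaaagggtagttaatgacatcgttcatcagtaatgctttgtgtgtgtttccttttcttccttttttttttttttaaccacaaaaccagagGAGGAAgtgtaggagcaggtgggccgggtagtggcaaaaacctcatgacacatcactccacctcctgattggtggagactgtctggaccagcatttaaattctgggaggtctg
Postn: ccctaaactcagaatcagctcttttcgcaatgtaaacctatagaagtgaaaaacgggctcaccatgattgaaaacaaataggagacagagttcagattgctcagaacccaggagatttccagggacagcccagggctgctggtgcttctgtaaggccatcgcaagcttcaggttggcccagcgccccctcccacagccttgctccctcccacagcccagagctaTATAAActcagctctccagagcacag
Gpnmb: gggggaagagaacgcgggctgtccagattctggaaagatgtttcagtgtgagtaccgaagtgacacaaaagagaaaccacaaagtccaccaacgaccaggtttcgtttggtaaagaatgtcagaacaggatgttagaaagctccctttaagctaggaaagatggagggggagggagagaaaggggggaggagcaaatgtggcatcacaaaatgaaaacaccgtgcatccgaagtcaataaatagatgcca
The motifs searched on both strands were GAGGAA for PU.1, the factor that sets myeloid fate, TGANTCA for AP-1, CACGTG or CATGTG for the MITF and TFE factors that drive lysosomal genes, and TATAAA for the TATA box. The Spp1 window held GAGGAA 113 bases before the start, a match present in 23.3% of all 32851 promoter windows of that length, and TATAAA 211 bases before it. The Postn window held TATAAA 26 bases before the start, and TATAAA was found in 12.4% of all windows. No window of the 8 genes held the AP-1 letters (6.75% of all windows did) or those of MITF and TFE (17.6%), and GAGGAA was found for 4 of the 8 genes, Spp1, Cd44, Itgav and Itgb1. A gene was counted with a match in any of its windows, while the shares count single windows, so the measures are not alike. These matches are descriptions of letters and not of binding.

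**Figure D1:**
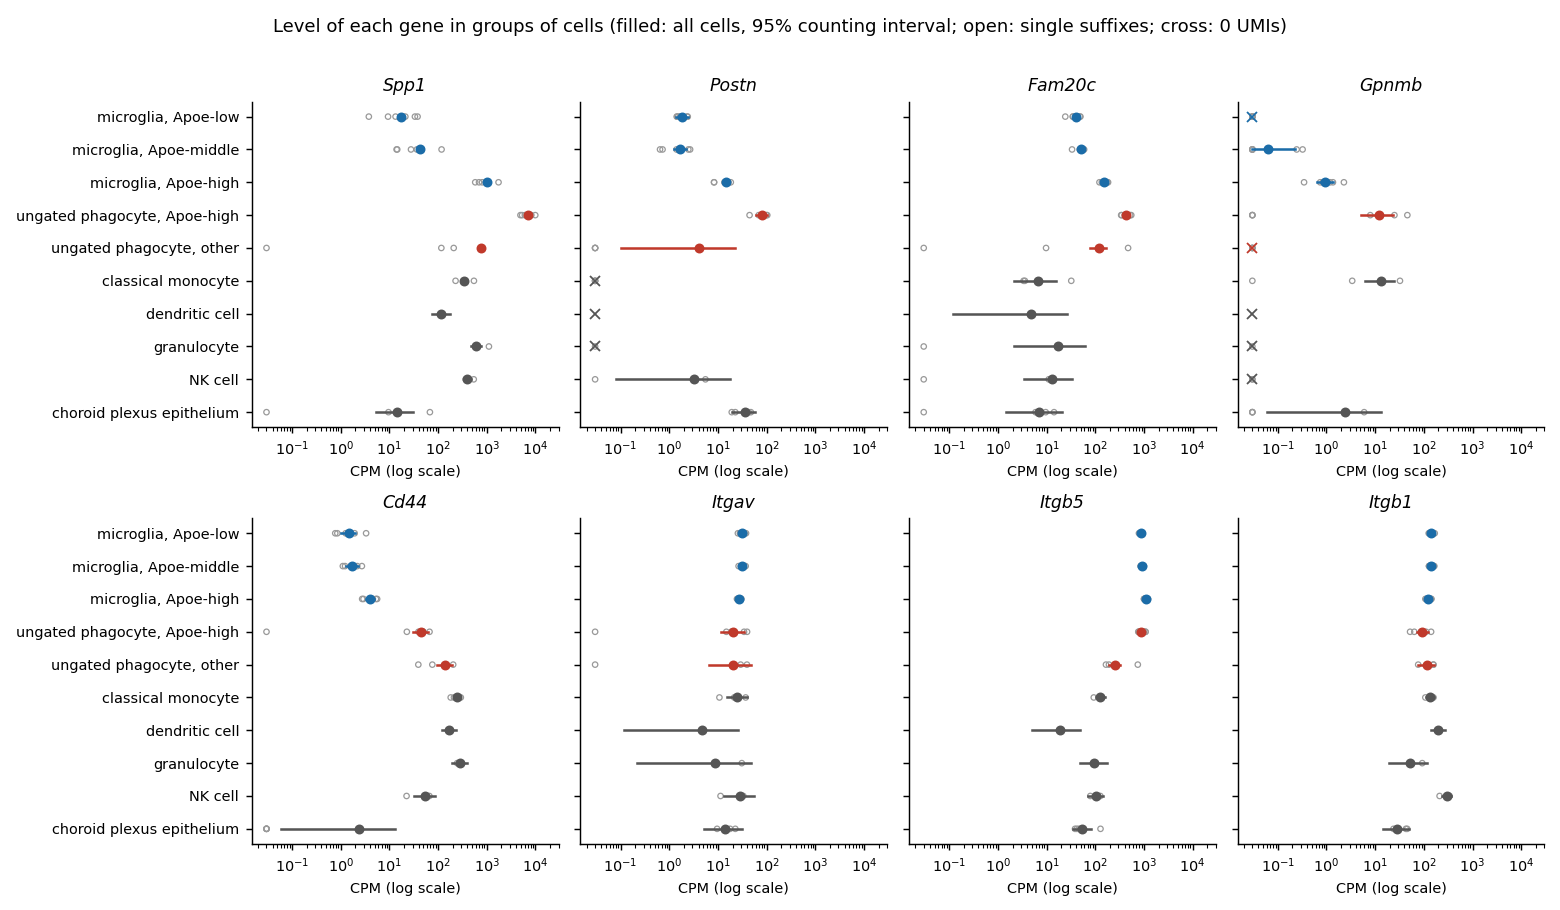
CPM (log axis) of the 8 genes in 10 groups of cells. Filled points are all cells of a group with exact Poisson 95% intervals, open circles are single suffixes with at least 20 cells, crosses are groups with 0 UMIs, and open circles at the left end are suffixes with 0 UMIs. Spp1 runs from 14.2 CPM in choroid plexus epithelium to 7065 CPM in ungated Apoe-high phagocytes, while Itgb5 stays between 883 and 1100 CPM in the microglial tiers.

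Spp1 UMIs were found mainly in Apoe-high microglia-gated cells and in a small set of shallow Apoe-high phagocytes that passed no gate. No gate was set for macrophages derived from bone marrow. The study assigned a cluster with high Spp1 and Apoe to such macrophages, and a cluster enriched for both genes to microglia. Another of its clusters of bone marrow macrophages had low levels of microglial genes, P2ry12 and Tmem119 among them. The part of macrophages derived from bone marrow in these groups was not tested. Of the 40357 Spp1 UMIs in passing cells, 80.3% were in Apoe-high microglia-gated cells, 12.3% in ungated cells, 3.35% in Apoe-middle cells, 1.21% in Apoe-low cells and 1.18% in blood-derived leukocytes, a term used here for gated monocytes, dendritic cells, granulocytes and NK cells together. In Apoe-low cells Spp1 stood at 3.80 CPM in the lowest, 17.4 CPM in the median and 38.1 CPM in the highest of 6 suffixes. In Apoe-high cells the same values were 583, 880 and 1756 CPM, so that the suffixes of the tiers did not overlap. Over all cells Spp1 was at 1012 CPM (95% interval 1001 to 1023) in Apoe-high and 17.8 CPM (16.2 to 19.4) in Apoe-low cells, a difference of 5.83 on the log2 scale (5.70 to 5.96), or 56.9-fold, higher in 6 of 6 suffixes. Apoe-middle cells, at 42.2 CPM and 14.1 to 119 CPM over suffixes, overlapped Apoe-low cells in their suffix ranges.

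Spp1 differed among the suffixes even within the Apoe-high tier. In microglia-gated cells as a whole it was at 236, 262, 576 and 397 CPM in suffixes 1, 2, 5 and 6. It ran from 96.1 CPM in suffix 3 to 699 CPM in suffix 4. These suffixes also differed in their share of Apoe-high cells, 24.5% and 41.0%, and in median depth, 3512 and 2457.5 UMIs. The share of Apoe-high cells with at least 1 Spp1 UMI ranged from 14.2% to 28.9% over suffixes. The part of graft, time, batch or library in these differences was not tested, since suffixes were not assigned to mice.

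Transcripts of Spp1 sat in few cells. Only 4433 passing cells (11.4%) had a UMI of Spp1, the 387 cells (1%) with the most held 57.4% of its UMIs, the top 5% held 91.8%, and 1 cell held 686. In contrast the top 5% of cells held 34.0% of the UMIs of Apoe, 17.6% of those of P2ry12 and 17.1% of those of Itgb5. Fam20c lay between, with 68.6% of its UMIs in the top 5% of cells. Sparse genes reach high shares by this measure. Itgav, found in 6.76% of cells, had 75.7% of its UMIs there, and Postn, Cd44 and Gpnmb had 100%. In Apoe-high cells 19.4% had an Spp1 UMI, against 2.80% in Apoe-low cells and 2.08% in choroid plexus epithelium (median 1022.5 UMIs). Thinned to 500 UMIs a cell, these shares were 11.9%, 0.699% and 0.941%. The share in the epithelium rests on 4 of 192 cells with 6 UMIs in all, too few to set a floor. The share in Apoe-low cells is not read as expression, and its source was not tested.

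**Figure D2:**
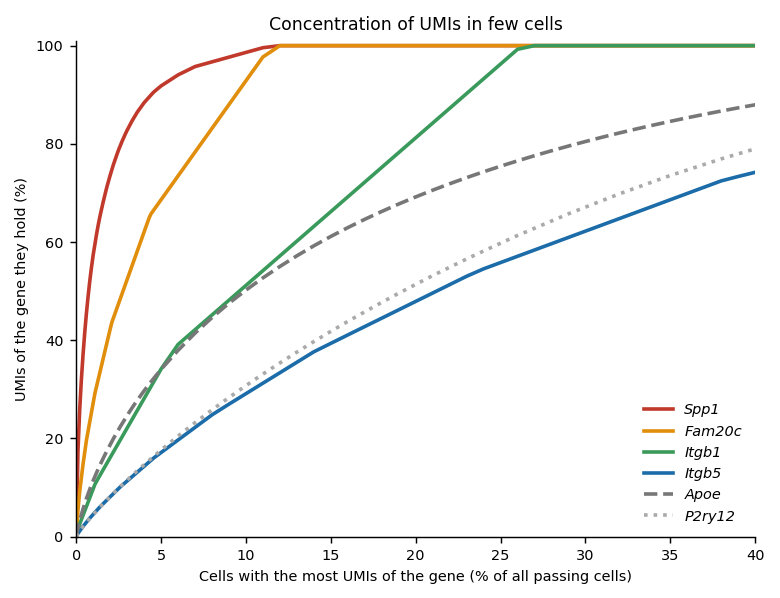
Share of a gene's UMIs (vertical axis, percent) held by the cells with the most UMIs of that gene (horizontal axis, percent of passing cells). Spp1 reaches 91.8% at 5% of cells and 98.6% at 10%, Fam20c reaches 92.8% at 10%, and Itgb5 follows P2ry12, with 29.1% and 30.7% at 10%.

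Among states of microglia-gated cells, which overlap each other, Spp1 was highest in 97 lipid-associated cells, defined by Lpl, Mmp12 and Fabp5, at 5825 CPM (5564 to 6094), where 67.0% of cells had a UMI. The 588 cells with MHC class II genes had 1551 CPM, with 357 CPM in the lowest and 5563 CPM in the highest of 5 suffixes. In 899 interferon-response cells Spp1 was at 1073 CPM, in 3116 Ccl2-high cells at 639 CPM and in 479 cycling cells at 433 CPM. The suffix ranges of these last 3 states overlapped each other, with lowest suffixes at 64.5, 62.4 and 133 CPM. Only 1 suffix held 20 lipid-associated cells, so that their level has no spread over suffixes.

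The 879 ungated cells that passed the general phagocyte list (Csf1r, C1qa, C1qb, C1qc and Cst3), a grouping made after their values were seen, held most of the remaining Spp1. In the 749 of them with at least 1% of UMIs on Apoe, Spp1 was at 4947 CPM in the lowest, 6767 CPM in the median and 9981 CPM in the highest of 6 suffixes, above every suffix of Apoe-high microglia-gated cells. Over all of these cells it was at 7065 CPM (6866 to 7268), 6.98-fold above Apoe-high microglia-gated cells, and 44.7% had a UMI. They had a median of 732 UMIs, Apoe at 77365 CPM, C1qa at 12130 CPM and P2ry12 at 193 CPM. The classical monocyte list summed to 117 CPM and the border-associated macrophage list to 59.3 CPM. In Apoe-high microglia-gated cells these lists were at 5.03 and 9.90 CPM. The dendritic cell list was not higher, at 2.96 against 3.56 CPM. The part of recruited macrophages in this group was not tested. Apoe-high microglia-gated cells of under 1000 UMIs, with a like median depth of 763 UMIs, had P2ry12 at 2309 CPM and Spp1 at 492 CPM (471 to 513), though with 141 to 2438 CPM over suffixes. P2ry12 is a gene of the microglial gate, so that its low level in ungated cells follows from the grouping.

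Blood-derived leukocytes had 341 CPM of Spp1 (311 to 373) against 374 CPM (370 to 378) in microglia-gated cells, a difference of -0.13 on the log2 scale. This set had no gate for macrophages derived from bone marrow, which may lie in the microglial gate or outside all gates. The same holds for the comparisons of Cd44, Itgb5 and Fam20c. The leukocytes were lower in all 4 suffixes that could be compared. They were at 257, 269, 527 and 364 CPM in suffixes 2, 4, 5 and 6, where microglia-gated cells were at 262, 699, 576 and 397 CPM. Few cells carried these counts. Of 142 NK cells 16 had a UMI and the 3 highest held 78 of 126 UMIs, of 72 granulocytes 11 had a UMI and 3 held 50 of 71, and of 174 monocytes 39 had a UMI and 3 held 119 of 256. Per 1000 UMIs of the general phagocyte list, Spp1 stood at 42.6 in blood-derived and 4.23 in microglia-gated cells, while that list itself was at 8003 and 88545 CPM. The 13 border-associated macrophages, which had no UMI of Cbr2 or Lyve1, held 319 Spp1 UMIs, 240 of them in 3 cells. Whether such cells shared a droplet with an Spp1-rich phagocyte was not tested.

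Postn was sparse and, like Spp1, was higher in Apoe-high cells. It gave 647 UMIs in 526 of the 38751 cells, 454 of which had 1 UMI. In Apoe-low cells Postn stood at 1.42, 1.60 and 2.40 CPM in the lowest, median and highest suffix, and in Apoe-high cells at 8.31, 14.8 and 18.4 CPM, with no overlap. The levels over all cells were 14.5 CPM (13.2 to 15.9) in Apoe-high and 1.82 CPM (1.35 to 2.40) in Apoe-low cells, 7.97-fold apart (5.95 to 10.9), higher in 6 of 6 suffixes. Ungated Apoe-high phagocytes had 80.0 CPM (60.1 to 104), which is 5.51-fold above Apoe-high microglia-gated cells and higher in 6 of 6 suffixes. Granulocytes, monocytes and dendritic cells had 0 Postn UMIs, which, at 3 counts over each group, allows up to 26.1, 3.94 and 14.1 CPM, and NK cells had 1 UMI.

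The share of cells with an Spp1 UMI was 11.0% in cells without Postn, 42.2% in the 526 cells with at least 1 Postn UMI, 69.4% in the 72 cells with at least 2 and 95.7% in the 23 cells with at least 3. Of the 569 Postn UMIs in microglia-gated cells, 287 were in cells without Spp1. Cells with Postn were shallower, with medians of 1422 to 1528 UMIs against 2430 in those without. The 12 cells that held 4 to 9 Postn UMIs had 62 in all, and 11 of them also had Spp1, with a median of 43 Spp1 UMIs over the 12 cells. They came from 5 of the 6 suffixes, and 10 of them were microglia-gated.

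Choroid plexus, an epithelium whose abundant Ttr is often found as free RNA in brain preparations, was examined beside Postn. Choroid plexus epithelial cells had 35.6 CPM of Postn (19.9 to 58.7), from 15 UMIs in 192 cells. Of the 647 Postn UMIs, 586 were in cells without any UMI of Ttr or of the choroid plexus list. Of the 38751 passing cells, 34019 had no such UMI, so that most Postn UMIs would lie there in any case. Such UMIs were found in 10.6% of cells with Postn and 12.2% of cells without it. Microglia-gated cells with 0 such UMIs had 6.92 CPM of Postn, against 2.59 CPM in those with 1 to 9, at median depths of 2287 and 3328 UMIs. In Apoe-high cells without choroid plexus RNA Postn was at 16.0 CPM (14.6 to 17.6) and in Apoe-low cells without it at 1.78 CPM (1.28 to 2.42). None of the 12 cells with 4 or more Postn UMIs had any. Markers of fibroblasts and mural cells summed to 2.47 CPM in Apoe-high and 3.17 CPM in Apoe-low cells.

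Fam20c, whose product phosphorylates osteopontin and other secreted proteins, was 3.72-fold higher in Apoe-high than in Apoe-low cells. Over suffixes it ran from 24.3 to 49.7 CPM (median 38.3) in Apoe-low and from 122 to 184 CPM (median 155) in Apoe-high cells, without overlap, and the log2 difference over all cells was 1.89 (1.80 to 1.99). It reached 886 CPM (786 to 994) in lipid-associated cells, 75.3% of which had a UMI, and 424 CPM (376 to 476) in ungated Apoe-high phagocytes. In other states it was lower, with 83.7 CPM in MHC class II, 74.2 CPM in Ccl2-high, 68.3 CPM in interferon-response and 59.1 CPM in cycling cells, and the suffix ranges of these 4 states overlapped. Blood-derived leukocytes had 8.56 CPM of Fam20c against 83.3 CPM in microglia-gated cells, 9.73-fold lower and lower in 4 of 4 suffixes. In Apoe-high cells 31.1% of cells with Spp1 had a Fam20c UMI and 13.9% of those without, at median depths of 2054 and 1149 UMIs.

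Gpnmb was almost absent, with 51 UMIs in 38 of 38751 cells. Apoe-high microglia-gated cells held 30 of these UMIs, at 0.937 CPM (0.632 to 1.34), Apoe-middle cells 2 and Apoe-low cells 0. Against the 3 counts that a count of 0 allows over the whole Apoe-low group, the log2 difference was 3.10, and the lower end of its exact 95% interval was 2.71. Ungated Apoe-high phagocytes had 8 UMIs (11.9 CPM, 5.12 to 23.4), and monocytes had 10 UMIs in 5 cells (13.1 CPM, 6.30 to 24.2), 8 of them in 3 cells. With so few UMIs, a difference between monocytes and ungated phagocytes was not detectable at this depth.

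Of the 8 genes, Spp1, Postn, Fam20c and Gpnmb were at least 2-fold higher in Apoe-high than in Apoe-low cells and higher in every suffix, and none was lower by that rule. Among all 12312 genes with at least 20 UMIs in the groups together, 2.76% were higher and 1.39% lower by the same rule. The 8 genes were chosen with earlier results of these data known, so their share is a description and not enrichment. The median log2 difference of the 8 genes was 1.68, also with Gpnmb taken at 3.10, and that of all genes compared was -0.07. The receptor subunits Itgav, Itgb5 and Itgb1 differed by less than 2-fold between the tiers. Cd44 was 2.77-fold higher in Apoe-high cells (1.93 to 4.05), though in 5 of 6 suffixes, and so was not called. Markers of border-associated macrophages summed to 9.90 CPM in Apoe-high and 2.15 CPM in Apoe-low cells and those of classical monocytes to 5.03 and 8.20 CPM, and their part in the result was not tested.

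Integrin β5 was the receptor subunit found in most cells. Itgb5 had UMIs in 81.8% of passing cells and 83.8% of microglia-gated cells, at 976 CPM (970 to 982), with 870.3 to 1040 CPM over suffixes. It stood at 791 to 940 CPM over suffixes in Apoe-low and 1002 to 1220 CPM in Apoe-high cells, which did not overlap, yet the difference was 1.25-fold (1.23 to 1.27). In blood-derived leukocytes Itgb5 was at 103 CPM (86.6 to 121), 9.50-fold lower than in microglia-gated cells and lower in 4 of 4 suffixes. This log2 difference of -3.25 was -1.77 when leukocytes were gated with no limit on microglia-restricted genes. The monocytes had 127 CPM, the NK cells 102 CPM, the granulocytes 95.7 CPM and the dendritic cells 18.8 CPM. The general phagocyte list was also lower in blood-derived leukocytes than in microglia-gated cells, at 8003 against 88545 CPM. Among the leukocyte gates it did not follow Itgb5. It was at 6115 CPM in monocytes, 8666 CPM in NK cells, 17212 CPM in granulocytes and 8808 CPM in dendritic cells. Per 1000 UMIs of that list, Itgb5 stood at 11.0 in microglia-gated cells, 12.8 in blood-derived leukocytes, 20.8 in monocytes, 11.8 in NK cells, 5.56 in granulocytes and 9.09 in choroid plexus epithelium. The part of free phagocyte RNA or shared droplets in the low Itgb5 counts of these groups was not tested.

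Cd44 was the reverse, being high in gated blood-derived cells and near absent from microglia-gated cells. In blood-derived leukocytes it stood at 163 CPM in the lowest, 197 CPM in the median and 232 CPM in the highest of 4 suffixes, and in microglia-gated cells at 1.77, 2.53 and 3.41 CPM in 6 suffixes. Over all cells it was at 193 CPM (171 to 218) against 2.45 CPM (2.14 to 2.79), a log2 difference of 6.30 (6.04 to 6.57), or 79.0-fold. Granulocytes had 278 CPM (190 to 393), monocytes 244 CPM (211 to 282) and dendritic cells 169 CPM (118 to 234), whose intervals overlapped between neighbors in that order, and NK cells had 54.4 CPM (31.7 to 87.2). At least 1 Cd44 UMI was found in 56.3% of monocytes and 59.0% of dendritic cells against 0.571% of microglia-gated cells. Within microglia Cd44 was at 4.03 CPM in Apoe-high and 1.46 CPM in Apoe-low cells, 2.77-fold apart (1.93 to 4.05) and higher in 5 of 6 suffixes. Ungated phagocytes with less Apoe had 139 CPM, and this small group of 130 cells also carried monocyte markers at 1169 CPM and dendritic cell markers at 941 CPM, against 5.03 and 3.56 CPM in Apoe-high microglia-gated cells. The 250 cells with mixed markers, in which doublets would fall, had 44.9 CPM.

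Itgav was at 31.9 CPM or less in the groups plotted, and Itgb1 was found in microglia and in leukocytes. Itgav was at 29.6 CPM (28.5 to 30.8) in microglia-gated cells, with 26.2 to 34.3 CPM over suffixes, and at 21.4 CPM (14.4 to 30.6) in blood-derived leukocytes, from 30 UMIs. The log2 difference was -0.47 with an interval from -1.04 to 0.05, and no neighbors in the order of groups stood apart by their counting intervals. Itgb1 was at 135 CPM (133 to 137) in microglia-gated cells and 173 CPM (152 to 197) in blood-derived leukocytes, 1.28-fold higher (1.13 to 1.46) and higher in 4 of 4 suffixes. Among the leukocytes NK cells had 295 CPM (238 to 361), dendritic cells 197 CPM (142 to 266), monocytes 135 CPM and granulocytes 52.2 CPM of Itgb1, and the intervals of NK and dendritic cells overlapped. Between Apoe tiers both genes were slightly lower in Apoe-high cells, Itgb1 by -0.17 and Itgav by -0.21 on the log2 scale, each lower in 5 of 6 suffixes.

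Both chains of an αvβ5 receptor were found together in 6.86% of Apoe-low, 8.09% of Apoe-middle and 4.48% of Apoe-high cells, a share set by how seldom Itgav was caught. Of Apoe-high cells with Itgav, 89.9% also had Itgb5, and of those without it 79.8% had Itgb5, at median depths of 3387 and 1233 UMIs. Itgb5 was found in 86.8% of Apoe-low cells with Spp1 and 85.4% of those without. In Apoe-high cells these shares were 85.7% and 79.0%, at median depths of 2054 and 1149 UMIs. Cd44 was found in 1.72% of Apoe-high cells with Spp1 and 0.546% of those without.

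In blood-derived leukocytes against microglia-gated cells, Cd44 alone of the 8 genes was at least 2-fold higher over all cells and higher in each suffix compared. By this rule 11.1% of 13011 genes were higher. Postn, Itgb5 and Fam20c were lower by the same rule, as were 25.9% of genes. These shares of all genes are large, so that being called in this comparison is common. In ungated Apoe-high phagocytes against Apoe-high microglia-gated cells, Spp1, Postn and Fam20c were higher by the same rule, as were 1.35% of 11670 genes, and none was lower, as were 8.99% of genes. Gpnmb and Cd44 were 12.6-fold and 11.0-fold higher there, though not in every suffix, from 8 and 30 UMIs.

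To see which genes went with Spp1 among microglia-gated cells, those cells of at least 1000 UMIs were classed by the share of their UMIs on Spp1, with limits chosen after the values were seen. Of 28615 cells, 88.2% had none, 6.49% were under 0.1%, 3.16% were between 0.1 and 0.5% and 2.17%, or 621 cells, were at 0.5% or more. Postn stood at 2.86 CPM in cells without Spp1, then 4.95, 27.8 and 82.3 CPM (68.7 to 97.8) in the classes that followed. Fam20c stood at 66.6, 123, 208 and 314 CPM and Gpnmb at 0.107, 0.309, 1.85 and 7.02 CPM. Cd44 was at 1.82 CPM in cells without Spp1 and 16.6 CPM (10.8 to 24.3) in the highest class. By comparison Itgb5 ran from 933 to 1062 CPM, Itgav from 26.0 to 31.3 CPM and Itgb1 from 126 to 143 CPM, with no order in the latter pair. Apoe was at 10016 CPM without Spp1 and 68306 CPM in the highest class, and P2ry12 at 4080 and 883 CPM. Marker lists of other cell types did not all rise with these classes. The border-associated macrophage list summed to 3.66, 12.4, 21.5 and 19.1 CPM over the 4 classes, with Lyve1 and Cd163 at 0 in the highest. The classical monocyte list had no order, at 7.08, 14.4, 9.27 and 10.8 CPM (6.32 to 17.4 in the highest class). In the highest class Ly6c2 was at 0, and Plac8 was at 5.10 CPM against 6.78 CPM without Spp1. The dendritic cell list was at 2.79, 5.42, 1.11 and 1.28 CPM. Ms4a7, a gene of border-associated and monocyte-derived macrophages named after its values were seen, stood at 0.684, 7.74, 14.8 and 83.5 CPM, and Tgfbi at 21.7, 64.8, 59.0 and 136 CPM. The part of such cells in the Postn and Fam20c levels was not tested. Near the limits lay 96 cells within 0.05 percentage points of 0.5% and 335 cells within 0.02 points of 0.1%.

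**Figure D3:**
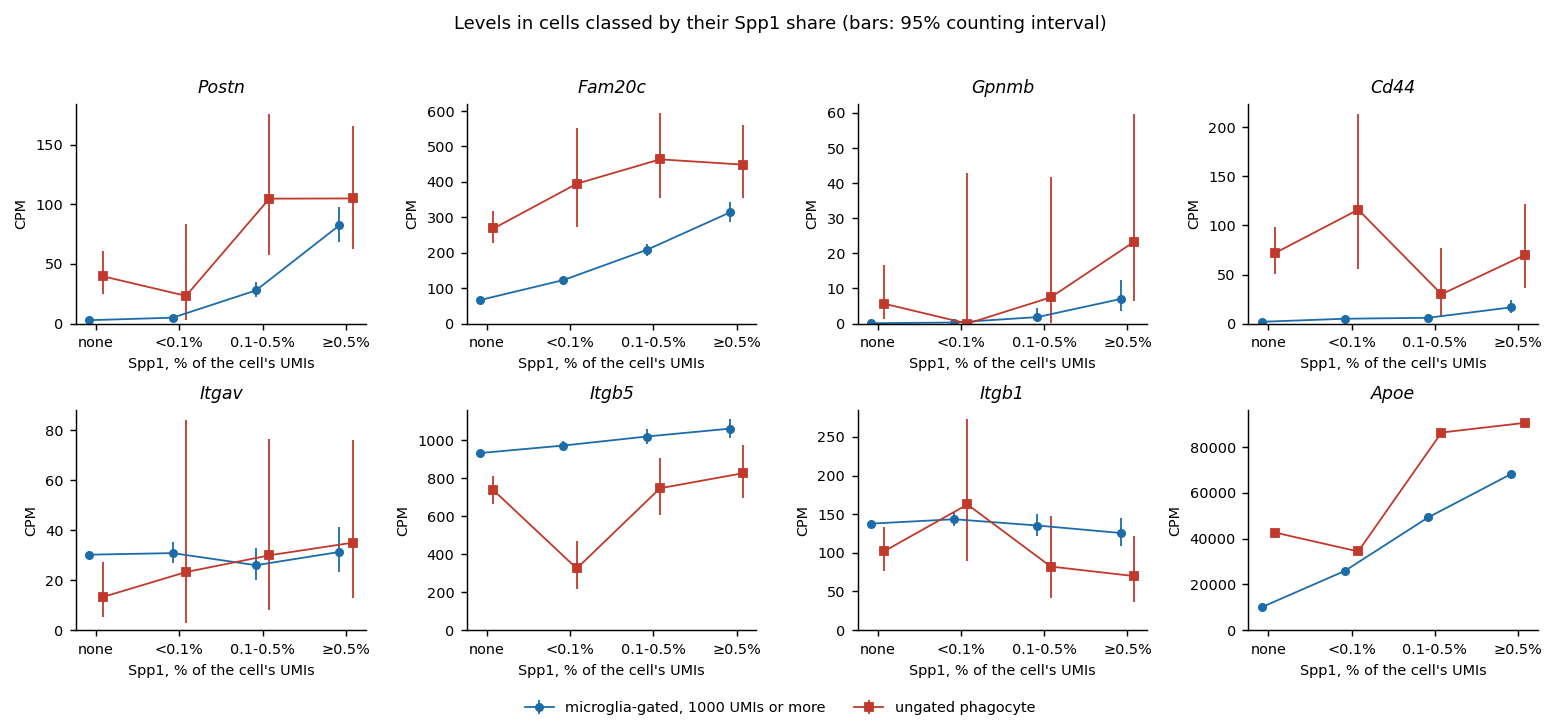
CPM of the other 7 genes and of Apoe (vertical axes, linear from 0) in cells classed by the percent of their UMIs on Spp1, with exact Poisson 95% intervals. In microglia-gated cells of at least 1000 UMIs (circles) Postn goes from 2.86 to 82.3 CPM and Fam20c from 66.6 to 314 CPM over the 4 classes, while Itgav stays between 26.0 and 31.3 CPM. For ungated phagocytes (squares) the second class holds 35 cells.

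The pathway around these genes was read from a list of 67 further genes, integrin subunits, relatives of osteopontin and periostin, kinases, proteases and other modifying enzymes, partners of Gpnmb, CD44-related genes and integrin adaptors. Of the 67, 39 had enough UMIs for the Apoe comparison, and 7 of these (17.9%) were higher and 1 (2.56%) lower in Apoe-high cells by the rule that called 2.76% and 1.39% of all genes. Their median log2 difference was 0.29. This list was also chosen with earlier results of these data known, so its shares here and below are descriptions and not enrichment. Fn1, fibronectin, a ligand of the same integrins, was at 29.4 CPM in Apoe-high and 1.35 CPM in Apoe-low cells, 21.8-fold apart (log2 4.45, 3.97 to 4.96). Acp5, the acid phosphatase that removes phosphate from osteopontin, was at 8.46 and 0.656 CPM, a log2 difference of 3.69. Itgax, the CD11c subunit, was at 38.2 and 7.98 CPM (4.79-fold), Itga4, whose integrin binds both osteopontin and fibronectin, at 4.40 and 1.42 CPM (3.10-fold), Ctsb, a lysosomal protease, at 4155 and 1854 CPM (2.24-fold) and Sdc4, a heparan sulfate proteoglycan, at 19.2 and 9.44 CPM (2.04-fold). The seventh gene and the one that was lower were under 20 CPM in every group.

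In blood-derived leukocytes, 42 of the 67 genes could be compared and 13 (31.0%) were higher and 11 (26.2%) lower than in microglia-gated cells, beside 11.1% and 25.9% of all genes, so that the share of lower genes was near the background. Integrin subunits made up 5 of the 13 higher genes, with Itgb7 at 249 against 1.72 CPM, Itgal at 71.3 against 0.798 CPM and Itga4 at 80.6 against 2.58 CPM among them. Tgfbi, a relative of periostin, was also higher, at 1089 against 28.2 CPM, and was at 1787 CPM in monocytes and 6.41 CPM in NK cells. Mmp9, a protease that cuts osteopontin, was at 348 CPM in granulocytes and at 0.011 CPM in microglia-gated cells. Lower were Sparc, a collagen-binding matrix protein and marker of microglia, at 128 against 3169 CPM, Plau, the urokinase protease, at 15.0 against 109 CPM, and Ctsd, a lysosomal protease, at 1234 against 11631 CPM. Itgb3, the β3 partner of αv, named after its values were seen, was at 2.14 against 7.92 CPM.

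In ungated Apoe-high phagocytes, 38 of the 67 genes could be compared with Apoe-high microglia-gated cells. The 4 that were higher were Fn1 (196 against 29.4 CPM), Mmp12, macrophage elastase (59.3 against 7.71 CPM), Itga5, the fibronectin receptor subunit (51.9 against 12.3 CPM), and Itgax (135 against 38.2 CPM). Lower were 6 genes, among them Itgam, the CD11b subunit, at 109.6 against 328 CPM and Sparc at 1330.3 against 2742 CPM. The other 4 had 0 UMIs in the ungated cells, and their counting intervals reached above equality. Of the 38 genes compared, 10.5% were higher and 15.8% lower, beside 1.35% and 8.99% of all genes compared. Their median log2 difference was 0.44 against -0.02.

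**Figure D4:**
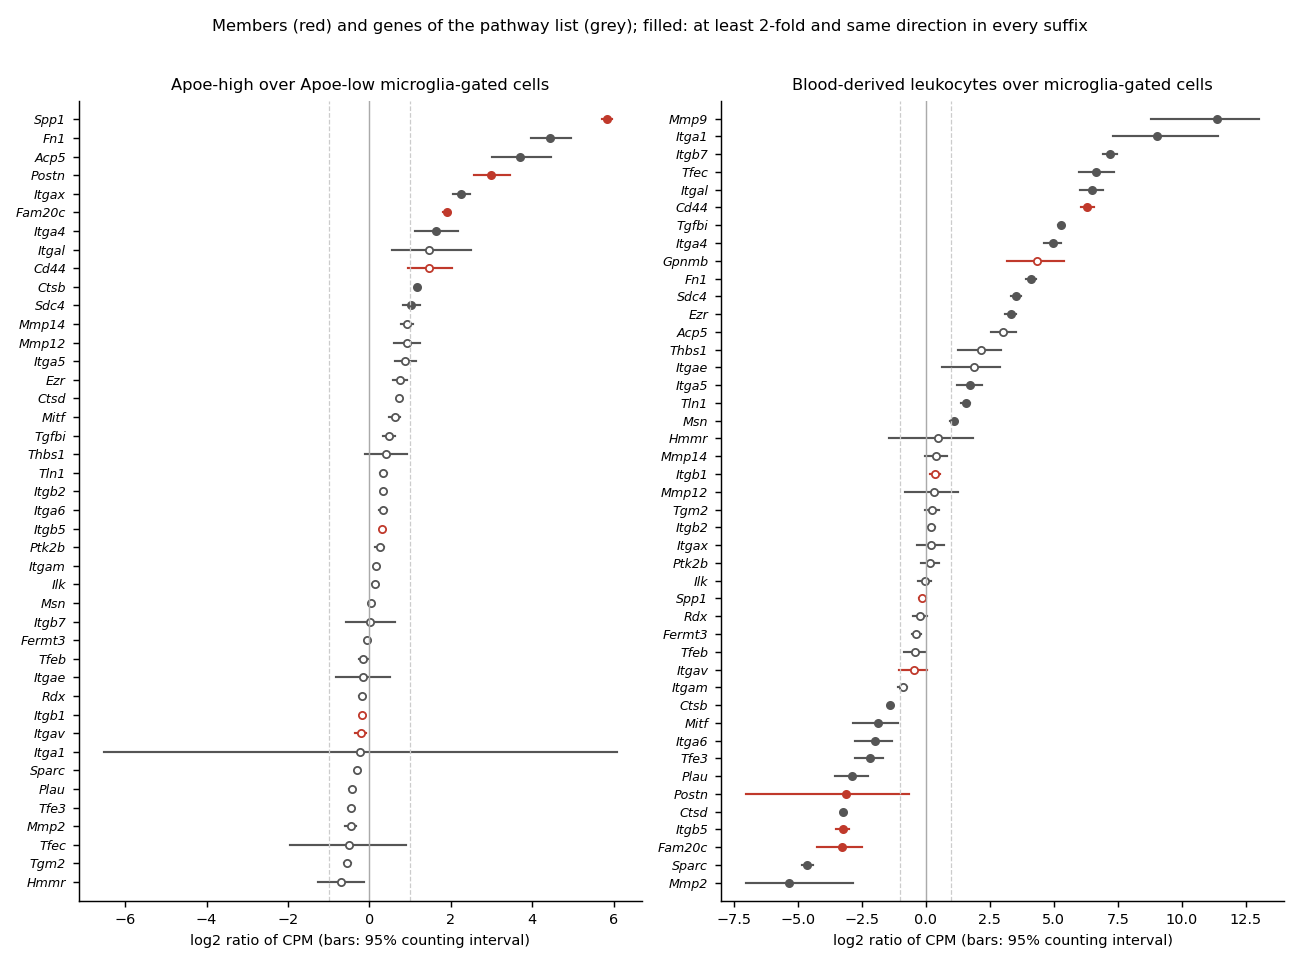
Log2 ratios of CPM with exact 95% counting intervals, bars being clipped at the plot limits, for the 8 genes (red) and genes of the pathway list (grey) with UMIs in both groups. Filled points passed 2-fold and had the same direction in every suffix compared. Spp1 is at 5.83 in the left panel, and Cd44 at 6.30 and Itgb5 at -3.25 stand on opposite sides in the right panel.

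The genes most like each of the 8 across 20 groups and states of cells were ranked among 5481 genes by Pearson's correlation of log2(CPM + 10), as a description, since the groups share cells and libraries and some were set by Apoe. For Spp1 these were Axl (r = 0.872), Nrp1 (0.872), Ptger4 (0.859), Cst7 (0.853) and Apoe (0.847). For Fam20c they were Apbb2 (0.931), Lyzl4 (0.929) and Ctsb (0.903), all 3 highest in lipid-associated cells. Itgb5 went with Camk1 (0.988) and Nhlrc3 (0.985), and Cd44 with Rgs18 (0.982), Metrnl (0.981) and Emilin2 (0.968). For Itgb1 the leading gene was Polr2a (0.946) and for Postn Got1 (0.809). Among the 8 genes themselves, Spp1 was closest to Fam20c (0.614), with 0.386 for Cd44, 0.338 for Postn, 0.329 for Gpnmb, 0.145 for Itgb1, 0.051 for Itgb5 and -0.20 for Itgav. Gpnmb and Itgav reached 50 CPM in no group of at least 50 cells and were not ranked.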

How the data were processed

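Single-cell RNA sequencing of CD45+ cells from 6 mice was analysed. The authors made 10x Chromium 3′ v2 libraries, aligned reads to mm10 and counted with Cell Ranger 3.1, and deposited 1 matrix of raw UMI counts, a whole-number count per gene and barcode (Cell Ranger 3.1.0 in the file header). The 6 libraries were joined by its aggregation step, which can thin reads to a common depth. The annotation release and that setting are not given in the sources used here. The lowest and highest median UMIs per barcode of the suffixes, 1536 and 3503, equal the lowest and highest that the study lists for its libraries. The libraries were run in 3 sequencing batches, and barcode suffixes were not assigned to mice or batches.

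The limits of the study were applied, which keep a barcode of more than 200 detected genes, no more than 2500, and a mitochondrial share below 5%. A cell entered a gate with at least 3 UMIs from at least 2 genes of a marker list. Cells of gates other than microglia had at most 0.25% of UMIs on P2ry12, Tmem119, Gpr34 and Olfml3. No doublet caller was run, and cells passing several lists were set aside as mixed. CPM, exact Poisson intervals, exact binomial (Clopper-Pearson) intervals for shares and exact conditional intervals for ratios, all at 95%, were computed with scipy 1.17.1, numpy 2.4.6 and pandas 2.3.3 (Python 3.11.15), and figures were drawn in matplotlib 3.10.9. A gene was compared with at least 20 UMIs in both groups together and called at 2-fold or more with the same direction in every suffix with at least 20 cells of both. Since the cells were treated as 1 pooled sample, no test was made. The ratio step was tested on simulated counts. Named genes were the 8 members and pathway genes of at least 20 CPM in a group of at least 50 cells, with Itgb3 and Ms4a7 added after their values were seen. The members and lists were chosen with earlier results of these data known. Libraries were not corrected for free RNA, which adds background counts of abundant genes to every droplet. Alternatives were other gate minimums, filters, Apoe limits, medians over suffixes and leaving out each suffix.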

Additional observations from a re-analysis of the deposited data

Results flagged for a closer look

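The 1660 barcodes that the filters removed also held the genes and entered no comparison above. Their levels were 929 CPM for Spp1, 1.99 CPM for Postn, 16.6 CPM for Cd44, 32.05 CPM for Itgav, 881 CPM for Itgb5, 149.9 CPM for Itgb1 and 70.9 CPM for Fam20c, while passing cells had 423, 6.77, 6.64, 29.3, 951, 135 and 83.7 CPM. Each of the 7 was called because a signal appeared in barcodes outside the comparisons above the limit that a count of 0 allows. Within the removed barcodes, Spp1 stood at 2685 CPM in the 762 with 5% or more mitochondrial counts, where Apoe was at 30240 CPM, and at 710 CPM in the 893 with over 2500 genes.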

How the results depend on the processing

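No paired analysis was possible because the replicate numbers of the labels are not tied to the barcode suffixes and no test was made. Of 108 recomputed values outside the omission of single suffixes, 89 stayed within their counting interval or, for the number of pathway genes higher in Apoe-high cells (7), ran from 6 to 9, the 9 with Apoe-high at 2% or more, and none reversed. Some of the 89 could not have changed. The limits on microglia-restricted genes do not enter the Apoe comparisons, the shares of UMIs or the number of pathway genes. The Apoe limits do not enter the leukocyte comparisons or the Postn share, and the Apoe-low limit does not enter the Spp1 share. The interval of Gpnmb has no upper end, so that a rise could not be called a move. Its value of 3.10 was set against 3 counts. With Apoe-low under 0.5% that group held Gpnmb UMIs, and the ratio observed was 5.38 (2.79 to 10.7). The 2 values are not alike, and the latter is among the 89. The 19 values that moved were as follows. The share of Spp1 UMIs in Apoe-high microglia-gated cells (80.3%) was 82.3% with a gate minimum of 2 UMIs, 72.5% with 5 UMIs, 79.4% with no upper limit on genes, 79.9% with up to 10% mitochondrial counts, 83.8% with at least 1000 UMIs per cell, 72.9% with Apoe-high at 2% or more and 81.4% as a median over suffixes. The share of Postn UMIs in microglia-gated cells (87.9%) was 79.6% with a gate minimum of 5 UMIs, 93.3% with at least 1000 UMIs per cell and 90.6% in cells without choroid plexus RNA, a setting chosen after seeing the data. The log2 difference of Itgb5 between blood-derived and microglia-gated cells (-3.25) was -2.92 with no upper limit on genes, -1.77 with no limit on microglia-restricted genes and -3.68 with a limit of 0.1%, and that of Cd44 (6.30) was 5.84 with no such limit. The Apoe-high difference of Spp1 (5.83) was 6.41 with Apoe-high at 2%, 5.30 with Apoe-low under 0.5% and 5.66 as a median over suffixes, and that of Fam20c (1.89) was 2.22 with Apoe-high at 2% and 2.02 as a median over suffixes. The cause of these moves was not tested. Leaving out 1 suffix gave 5.67 to 6.12 for Spp1, 1.82 to 1.97 for Fam20c and 6.17 to 6.53 for Cd44. For Gpnmb, set against 3 counts, it gave 2.65 to 3.08. It gave -0.90 to -0.34 for Itgav, -3.34 to -3.11 for Itgb5 and 0.24 to 0.50 for Itgb1. It gave 79.4 to 82.3% for the Spp1 share, 85.7 to 89.3% for the Postn share and 6 to 8 pathway genes higher in Apoe-high cells. A median over suffixes could not be given for Gpnmb or for the number of pathway genes. Low counts limit Gpnmb, as well as Postn outside Apoe-high cells. The 39 dendritic cells were few but deep, with a median of 5543 UMIs, so that cell number limits each receptor there.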
